A study of Mus musculus with 36 samples.

Results

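Lrig1 GL cells, the genetically labelled progeny of Lrig1+ cells of the upper hair follicle, were compared between unwounded tail skin (0w) and tail skin 1 week after a first full-thickness wound (1w pw1). The comparison used 6 of the 36 libraries of the series, 3 at 0w and 3 at 1w pw1, grouped by their labels, and was carried across all genes of the count table. Both groups came from adult mice carrying Lrig1-EGFP-ires-CreERT2 and Rosa26-fl/STOP/fl-tdTomato that had received hydroxytamoxifen once on the tail skin, so that cells with an active Lrig1 locus at that time, and their descendants, kept tdTomato whatever they became later. In the labels the groups differ by the wound and the time after it. By the study's schedule the hydroxytamoxifen was given 1 week before 0w. Cells at 1w pw1 had therefore been traced for 1 week longer, in mice about 1 week older. The series holds no unwounded group at that trace time, so the wound and the trace time cannot be told apart. The tdTomato+ epidermal cells were sorted by flow cytometry and sequenced as small pools of cells by a modified Smart-seq2 protocol, and the study describes 3 mice a group. At 1w pw1 the sorted zone held the wound bed together with hair follicles distant from it, so that cells of both places were read as 1 mixture.

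Lrig1 marks stem cells of the junctional zone, which maintain the infundibulum, the sebaceous duct and the sebocytes of uninjured skin. After a deep wound, keratinocytes of the follicle move towards the open surface, and an activated epidermis is known for the keratins 6, 16 and 17, for small proline-rich proteins of the cornified envelope, for secreted proteases that open a path through matrix and for a high use of glucose. The bulge of the lower follicle, marked by Krt15, Sox9, Nfatc1 and Lgr5, is a separate stem cell compartment.

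The 0w libraries held 1491780 to 2266757 counts and the 1w pw1 libraries 765252 to 1999352, so that 3 counts were worth 1.22 to 3.39 CPM, the depth-scaled count that is the unit of every level here (after edgeR's TMM scaling). The keratinocyte genes Krt14, Krt5 and Perp were abundant in all 6 libraries, and the 7 keratinocyte markers summed to 21706 to 23690 CPM at 0w and to 31826 to 34039 CPM at 1w pw1 (exact permutation test, two-sided, p = 0.1, the smallest that 3 against 3 allows). Krt14 weighed heavily in this sum, with a mean of 10329 CPM at 0w and 17911 CPM at 1w pw1, against 3810 and 4402 CPM for Krt5. Of the 7 markers 6 had a positive log2 fold change and 1 a negative one. Their median was 0.22, and 1 was higher in all libraries. Lrig1 itself was read at 224, 244 and 183 CPM at 0w and 121, 89.4 and 155 CPM at 1w pw1, lower in every library of 1w pw1 without passing the test (log2 fold change -0.83 ± 0.33, adjusted p = 0.362). Of the 14 leukocyte markers 4 were in the table, with a sum of 0 to 1.54 CPM at 0w and 1.13 to 24.5 CPM at 1w pw1 (exact p = 0.2), and Ptprc was at 0 counts in replicates 1 and 2 of 1w pw1. The 7 fibroblast markers in the table summed to 20.7 to 57.0 CPM at 0w and 15.8 to 116.3 CPM at 1w pw1 (exact p = 0.7). Replicate 3 of 1w pw1 had the highest sum of both lists, with Col3a1 at 0.513, 0.812 and 0 CPM at 0w and 4.75, 4.52 and 44.3 CPM at 1w pw1 and Vim at 4.62, 7.31 and 3.84 CPM at 0w and 10.4, 7.92 and 26.3 CPM at 1w pw1, while Dcn, also a fibroblast gene, was at 4.62, 8.53 and 41.0 CPM at 0w and 21.8, 2.26 and 0 CPM at 1w pw1. Muscle and nerve sheath markers summed to 8.53 to 33.3 CPM at 0w and 20.9 to 90.0 CPM at 1w pw1 (exact p = 0.4). Mitochondrially encoded transcripts took 4.58% ± 1.24 of counts at 0w and 5.43% ± 2.58 at 1w pw1 (SD, n = 3 each, exact p = 0.8). Log2 CPM correlated at r = 0.682 to 0.748 among the 0w libraries, 0.777 to 0.824 among those of 1w pw1 and 0.669 to 0.780 between the groups, across the genes tested.

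Of 14306 genes tested, 31 differed at 1w pw1 from 0w by the calling rule (0.217%). Higher after the wound were 24 (0.168%) and lower 7 (0.0489%). A call took an adjusted p under 0.05 and a change above 1 on the log2 scale in edgeR's quasi-likelihood test, and each log2 fold change is given here ± its standard error. The higher genes included the glucose transporter Slc2a1, the lactate dehydrogenase Ldha, the connexin Gja1, the wound keratin Krt6b and the alarmin S100a8. Among the lower ones were the bulge and basal keratin Krt15, the cyclin Ccnd2 and the aldehyde dehydrogenase Aldh3a1. In each of the 31, all 3 libraries of 1w pw1 lay on one side of all 3 of 0w. Of all genes tested 7.51% did so on the higher side and 6.4% on the lower side. Counts of list members higher or lower in all libraries, given below, are to be set against these shares. The median log2 fold change of all genes was -0.05 and 48.0% of them were positive. In all, 32 tested genes, among them the called A630052C17Rik and Cyp4f39, had 0 counts in every 0w library and 3 or more in every library of 1w pw1, against 8 in the reverse direction. In these pools of sorted cells, fewer cells of a type and less RNA per cell cannot be told apart.

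The number of calls changed with the libraries in the fit and with the test. A fit to the 6 libraries alone, which tested 11488 genes, called 0, with 755 at an unadjusted p under 0.05 against 1580 in the fit to all 18, while edgeR's likelihood ratio test called 287 and DESeq2 345. Without replicate 1, 2 or 3 of 0w the calls numbered 2, 0 and 63, and without replicate 1, 2 or 3 of 1w pw1 they numbered 10, 28 and 16. None of the 31 changed direction in any of 20 alternatives, and 0 of them was called in every one. The 31 were called in these same libraries, so a kept direction is no separate evidence. The alternative with no fold threshold is the same fit. With the trend on GC content removed the split was 31 higher and 21 lower.

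**Figure D1:**
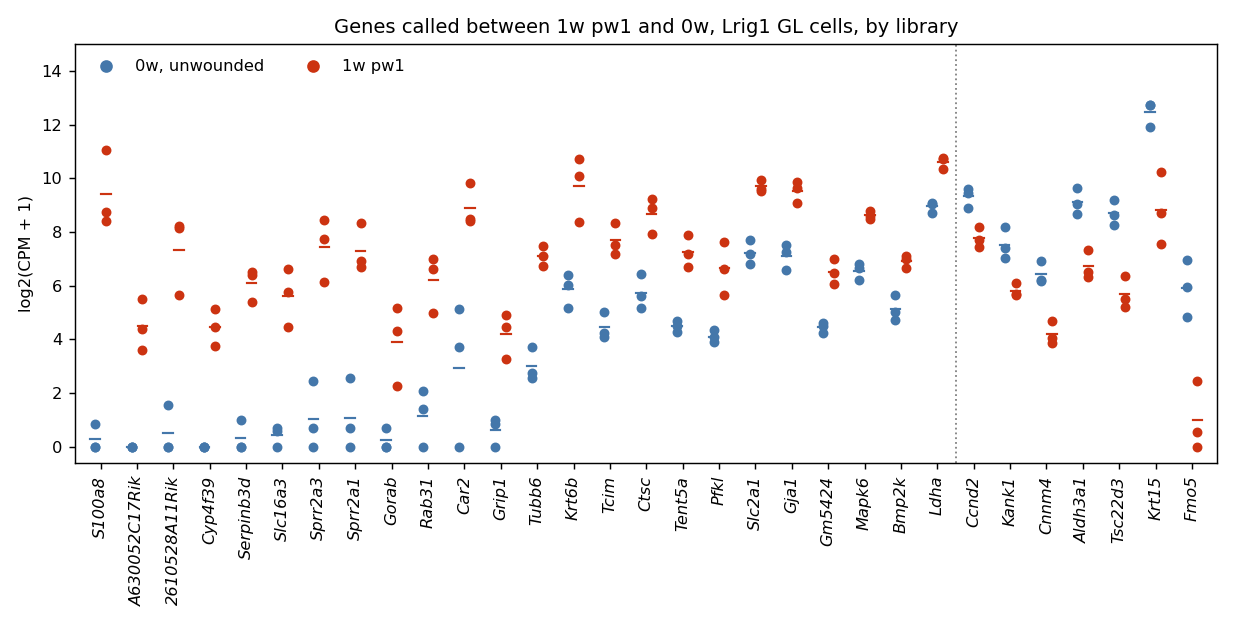
Level of each of the 31 called genes as log2(CPM + 1), with 1 point a library, blue for the 3 libraries of 0w and red for the 3 of 1w pw1, a bar at the mean, and genes ordered by log2 fold change. In each gene the red and blue points do not overlap, S100a8 and A630052C17Rik stand at the left, and the 7 genes right of the dotted line were lower at 1w pw1.

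**Figure D2:**
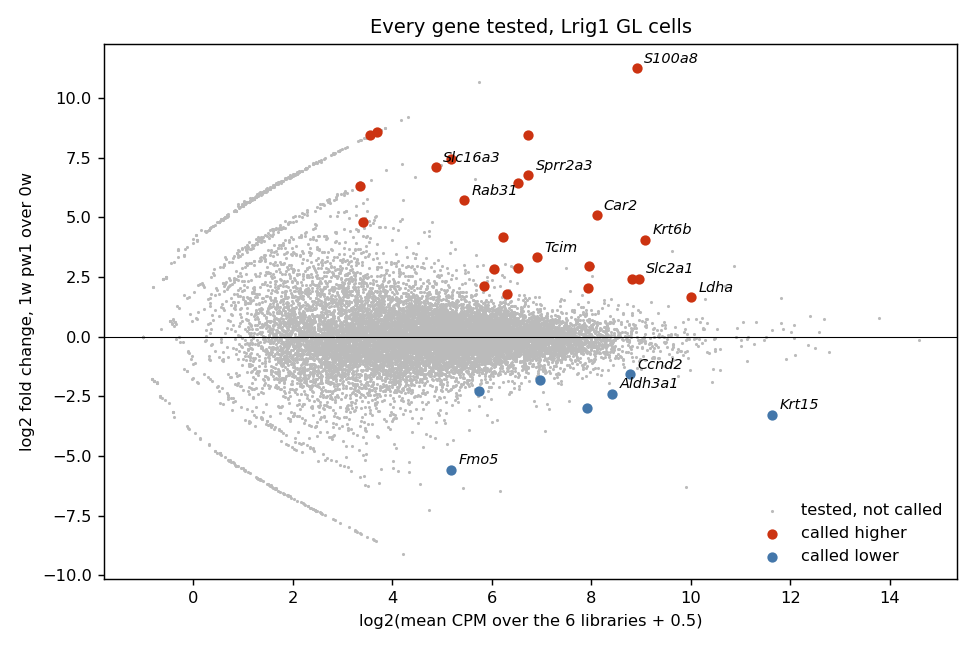
Log2 fold change of 1w pw1 over 0w against the mean level of the 6 libraries as log2(mean CPM + 0.5) for the 14306 genes tested, with the 24 genes called higher in red and the 7 called lower in blue. Most genes lie around 0 and the called genes Krt15 and Ldha are among the abundant ones.

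Glucose uptake and glycolysis gave the most called members of the lists examined. Of 19 listed genes, all of them tested, 4 were called higher and 0 lower, 18 had a positive log2 fold change, 9 were higher in all 3 libraries of 1w pw1 than in all 3 of 0w and 0 were lower, and the median log2 fold change was 1.09 (0.77 to 1.26 over 16 refits with other settings). Slc2a1, which encodes the glucose transporter GLUT1, was read at 109.8, 208 and 145 CPM at 0w and 739, 991 and 781 CPM at 1w pw1, a 5.42-fold higher mean (log2 fold change 2.44 ± 0.38, adjusted p = 0.0123). The 2 groups lay far apart. Ldha, which turns pyruvate into lactate, stood at 545, 421 and 527 CPM at 0w and 1716, 1288 and 1691 CPM at 1w pw1 and was 3.14-fold higher. Ldha differed on the log2 scale by 1.65 ± 0.27 (adjusted p = 0.0157). Pfkl, the liver type of phosphofructokinase, had 13.9, 15.8 and 19.2 CPM at 0w and 98.7, 49.8 and 199 CPM at 1w pw1, with replicate 3 the highest of its group (log2 2.83 ± 0.52, adjusted p = 0.0288). Slc16a3, the lactate exporter MCT4, had 1, 0 and 1 counts at 0w and 22, 47 and 214 counts at 1w pw1, which makes a ratio of 206 (95% counting interval 56.5 to 1709) of its pooled CPM. For Slc16a3 the log2 fold change was 7.12 ± 1.14 (adjusted p = 0.0157).

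The other members of the glycolysis list did not pass the test. Pkm, the pyruvate kinase, was at 322, 442 and 530.3 CPM at 0w and 949, 877 and 1327 CPM at 1w pw1, and its groups did not overlap. Pkm differed on the log2 scale by 1.28 ± 0.30 (adjusted p = 0.106). Eno1, the enolase, had 1224, 385 and 1109 CPM at 0w and 1369, 863 and 1979.5 CPM at 1w pw1, and its groups did overlap (log2 0.63 ± 0.42, adjusted p = 0.612). Tpi1, Gpi1, Pgk1 and Slc16a1, picked out after their values were seen, had log2 fold changes of 1.25, 0.73, 1.09 and 1.73 with every library of 1w pw1 above every one of 0w. The 15 tested targets of hypoxia-inducible factors had 0 calls, 11 positive and 4 negative log2 fold changes, 4 members higher in every library and a median of 0.68. Higd1a, the most abundant of them, had 171, 57.7 and 252 CPM at 0w and 335, 190.0 and 511 CPM at 1w pw1. For Higd1a the log2 fold change was 1.11 ± 0.43 (adjusted p = 0.341). Bnip3l and Pdk1, the next most abundant, had overlapping groups and log2 fold changes of -0.61 ± 0.37 (adjusted p = 0.576) and 0.07 ± 0.39 (adjusted p = 0.976). Vegfa, Car9 and Adm, chosen after their values were seen, were low, with Vegfa, the vascular growth factor, at 0, 6.09 and 3.84 CPM at 0w and 30.4, 15.8 and 69.7 CPM at 1w pw1. Vegfa differed on the log2 scale by 3.52 ± 1.17 (adjusted p = 0.259). Hif1a, the oxygen-regulated factor and not one of these targets, stood at 119, 289.9 and 378 CPM at 0w. At 1w pw1 it stood at 654, 516 and 774 CPM (log2 1.31 ± 0.39, adjusted p = 0.207). Wound and stress transcription factors gave 0 calls of 19 tested, with 10 positive and 9 negative values. Of them 1 was higher and 2 lower in all libraries, and the median was 0.01 (-0.23 to 0.39 over the refits). Nuclear-encoded subunits of oxidative phosphorylation gave 0 calls of 32 tested, 13 positive and 19 negative, and a median of -0.05. In all libraries 0 of the 32 were higher and 2 lower, beside 7.51% and 6.4% of all genes tested.

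**Figure D3:**
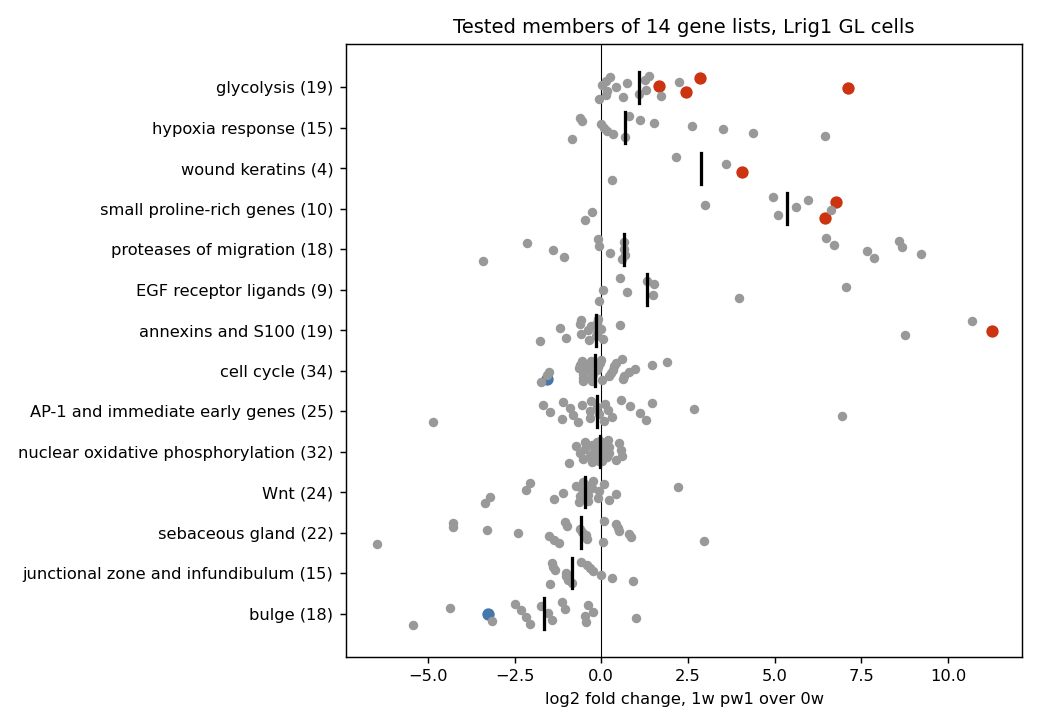
Log2 fold change of 1w pw1 over 0w of the tested members of 14 gene lists (number tested in brackets), with 1 point a gene, a black bar at the list's median, and called genes as larger red (higher) or blue (lower) points. Glycolysis, with a median of 1.09, lies to the right of 0 and the bulge list, with a median of -1.65, to the left, while the cell cycle and oxidative phosphorylation lists lie around 0.

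The promoters of the 4 called glucose genes are given here, since these genes were called higher together. Each run is 300 bases around the start that RefSeq gives (GRCm38.p6), which can differ from the GENCODE start used for gene positions, 5′ to 3′ on the gene's strand, and capitals mark ACGTG or its reverse complement CACGT, the core letters of hypoxia response elements. For Ldha the first of its listed promoters is shown.
Slc2a1, chr4:119108495-119108794, plus strand: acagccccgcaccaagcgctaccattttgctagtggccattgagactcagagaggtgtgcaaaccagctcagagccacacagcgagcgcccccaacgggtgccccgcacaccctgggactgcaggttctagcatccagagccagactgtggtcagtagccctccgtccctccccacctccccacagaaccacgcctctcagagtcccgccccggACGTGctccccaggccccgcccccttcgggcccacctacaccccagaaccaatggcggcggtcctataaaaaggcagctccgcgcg
Ldha, chr7:46845554-46845853, plus strand: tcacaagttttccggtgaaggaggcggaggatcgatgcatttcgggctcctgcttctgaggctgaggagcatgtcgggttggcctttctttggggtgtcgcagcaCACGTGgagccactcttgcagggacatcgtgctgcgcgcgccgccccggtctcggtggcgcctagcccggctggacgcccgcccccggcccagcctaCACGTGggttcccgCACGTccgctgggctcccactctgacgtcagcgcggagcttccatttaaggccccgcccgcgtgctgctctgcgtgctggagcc
Slc16a3, chr11:120948817-120949116, plus strand: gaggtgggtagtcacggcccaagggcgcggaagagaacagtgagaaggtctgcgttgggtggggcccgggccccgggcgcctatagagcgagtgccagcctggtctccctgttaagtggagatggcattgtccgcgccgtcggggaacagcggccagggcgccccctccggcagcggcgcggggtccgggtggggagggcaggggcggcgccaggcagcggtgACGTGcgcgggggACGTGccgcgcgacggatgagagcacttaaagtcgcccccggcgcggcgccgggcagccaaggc
Pfkl, chr10:78009758-78010057, minus strand: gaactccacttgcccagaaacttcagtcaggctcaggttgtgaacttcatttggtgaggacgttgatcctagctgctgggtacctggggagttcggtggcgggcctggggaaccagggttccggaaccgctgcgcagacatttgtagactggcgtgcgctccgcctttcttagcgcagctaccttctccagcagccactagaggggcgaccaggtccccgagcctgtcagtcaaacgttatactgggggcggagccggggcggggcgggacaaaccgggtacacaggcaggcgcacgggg
Searched on both strands, ACGTG stood at 1 position in the Slc2a1 promoter, 5 in that of Ldha and 2 in that of Slc16a3, where a CACGTG counts as 2 overlapping positions, and at 0 in that of Pfkl. These letters were chosen after the values were seen. Of the 24 genes called higher, 18 had 23 listed promoters, and 8 of the 23 (34.8%), from 7 genes, held ACGTG. Of all 32851 promoters of the same length, which were not limited to the genes tested, 19.6% held it. Enrichment was not tested. The AP-1 letters TGANTCA stood in 1 of the 23 (4.35%, 7.81% of all promoters), the TEAD letters GGAATG in 1 (4.35%, 14.7%) and the STAT letters TTCNNNGAA in 2 (8.7%, 8.3%). A match of letters is no site of binding, and its absence from 300 bases says nothing about the factor.

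Keratins and cornified envelope genes of activated epidermis came next. Krt6b (GRCm38, chromosome 15, 101676023 to 101680287, minus strand) rose 16.8-fold. It was read at 64.7, 82.8 and 35.2 CPM at 0w and 1675, 328 and 1072 CPM at 1w pw1. For Krt6b the log2 fold change was 4.07 ± 0.68 (adjusted p = 0.0157). Replicate 2 of 1w pw1 was the lowest of its group and still far above 0w. Its partner keratin Krt16 was at 79.6, 50.8 and 236 CPM at 0w and 2107, 482 and 1795 CPM at 1w pw1 and just missed the threshold. Krt16 differed on the log2 scale by 3.58 ± 0.72 (adjusted p = 0.0504). Krt6a showed 539.9, 657 and 621 CPM at 0w and 3203, 1679.8 and 3137 CPM at 1w pw1, again without overlap (log2 2.14 ± 0.47, adjusted p = 0.0784). Reads of Krt6a and Krt6b can be exchanged, since the genes are close copies. Krt17, which the unwounded follicle also makes, had 2028, 4179 and 2308 CPM at 0w and 3826, 2010.1 and 4650.1 CPM at 1w pw1, and its groups overlapped. For Krt17 the log2 fold change was 0.30 ± 0.48 (adjusted p = 0.878). In the list, 1 of the 4 wound keratins was called, 3 were higher in all libraries and the median log2 fold change was 2.86. Krt14, the keratin of the basal layer, was at 12310.0, 7281 and 11396 CPM at 0w and 16663, 17205 and 19864 CPM at 1w pw1. Krt14 differed on the log2 scale by 0.79 ± 0.26 (adjusted p = 0.238).

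Of 15 listed small proline-rich genes 12 were in the table and 10 were tested, 2 were called higher, 8 had a positive log2 fold change, 5 were higher in all libraries and the median was 5.35 (1.02 to 6.47 over the refits). With the 3 members at 0 counts in every library of 0w set at their lower bound the median was 2.19. Sprr2a1 (GRCm38, chromosome 3, 92215799 to 92221911, plus strand) and Sprr2a3 (GRCm38, chromosome 3, 92285417 to 92291405, plus strand) were nearly silent at 0w. Sprr2a1 had 0, 4.87 and 0.640 CPM at 0w and 324, 119 and 102 CPM at 1w pw1 (log2 6.44 ± 1.17, adjusted p = 0.0288), and Sprr2a3 0, 4.47 and 0.640 CPM at 0w and 214, 70.1 and 348 CPM at 1w pw1 (log2 6.77 ± 1.27, adjusted p = 0.0301). Counts of the 2 genes are uncertain against each other and against Sprr2a2, a close copy. The annotated spans of Sprr2a1 and Sprr2a2 overlap on the same strand. The transcribed sequences, by which reads are assigned, were not compared. Of the promoters, the 300 bases of Sprr2a2 equal those of Sprr2a1, and the Sprr2a3 promoter shares a run of 272 bases with that of Sprr2a1, in capitals here.
Sprr2a3, chr3:92285054-92285353, plus strand: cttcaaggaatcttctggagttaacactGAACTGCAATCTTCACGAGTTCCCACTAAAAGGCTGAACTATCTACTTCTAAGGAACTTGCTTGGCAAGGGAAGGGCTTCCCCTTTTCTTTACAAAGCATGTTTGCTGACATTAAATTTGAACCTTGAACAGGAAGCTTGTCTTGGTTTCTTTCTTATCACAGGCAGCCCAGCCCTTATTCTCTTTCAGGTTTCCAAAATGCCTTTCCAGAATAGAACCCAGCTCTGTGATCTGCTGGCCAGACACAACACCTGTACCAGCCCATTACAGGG
Sprr1b was at 27.7, 1.62 and 149.9 CPM at 0w and 911, 204 and 285 CPM at 1w pw1 (log2 2.98 ± 1.08, adjusted p = 0.309), whereas Sprr1a had 694, 633 and 437 CPM at 0w and 1002, 149 and 318 CPM at 1w pw1 with overlapping groups. For Sprr1a the log2 fold change was -0.26 ± 0.73 (adjusted p = 0.941). Sprr2h and Sprr2b, chosen after their values were seen, gave log2 fold changes of 6.63 ± 1.48, adjusted p = 0.0798, and 4.96 ± 1.23, adjusted p = 0.122. The 21 tested genes of interfollicular differentiation had 0 calls, 5 positive and 16 negative values and a median of -0.56 (-1.11 to -0.011 over the refits).

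S100a8, which encodes a subunit of the alarmin calprotectin and is abundant in neutrophils as well as in injured keratinocytes, had 0, 2 and 0 counts at 0w and 2234, 302 and 925 counts at 1w pw1. In CPM these were 0, 0.812 and 0 CPM at 0w and 2120.1, 342 and 427 CPM at 1w pw1, so that replicate 1 of 1w pw1 was several times above the other 2 and 0w close to empty. The ratio of pooled CPM was 2518 (95% counting interval 697 to 20803). S100a8 differed on the log2 scale by 11.26 ± 1.98 (adjusted p = 0.0232). Its partner S100a9, chosen after its values were seen, was at 0 counts in all of 0w and at 256, 19.2 and 43.4 CPM at 1w pw1, at least 68.1-fold higher against the mean level of 3 counts a library (adjusted p = 0.162). The library with the highest S100a8 and S100a9, replicate 1, had 4.75 CPM of leukocyte markers in all, and replicate 3, with the highest leukocyte sum of 24.5 CPM, had less of both genes. The part of leukocytes in the difference was not tested. Of the 19 annexin and S100 genes tested, S100a8 included, 14 had a negative log2 fold change, and the list's median was -0.15. The abundant Anxa2, Anxa8 and Anxa1 had overlapping groups and log2 fold changes of -0.15, -0.60 and -0.13. Serpinb3d, an inhibitor of serine and cysteine proteases in a cluster of similar genes that may share reads, had 2, 0 and 0 counts at 0w and 94, 36 and 181 counts at 1w pw1 (log2 7.47 ± 1.37, adjusted p = 0.0288).

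Gja1, which encodes connexin 43, a channel between neighbouring cells, rose 5.31-fold. Its libraries held 150.4, 94.2 and 181 CPM at 0w and 923, 795 and 543 CPM at 1w pw1. For Gja1 the log2 fold change was 2.41 ± 0.39 (adjusted p = 0.0157). Of the 9 gap junction genes tested it was the only one called, and 4 were positive and 5 negative. Its promoter was the only one among those of the genes called higher to hold the AP-1 letters TGANTCA, in capitals here.
Gja1, chr10:56377050-56377349, plus strand: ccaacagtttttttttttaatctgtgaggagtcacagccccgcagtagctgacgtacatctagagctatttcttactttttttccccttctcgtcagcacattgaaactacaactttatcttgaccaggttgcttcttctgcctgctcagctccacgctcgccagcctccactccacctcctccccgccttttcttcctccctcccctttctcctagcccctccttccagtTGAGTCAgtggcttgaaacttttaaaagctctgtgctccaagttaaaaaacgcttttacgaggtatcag
Of the AP-1 and immediate early genes themselves, 25 tested, 0 were called, 11 were positive and 14 negative, and the median was -0.13. Junb was at 281, 312 and 355 CPM at 0w and 1296, 558 and 738 CPM at 1w pw1 (log2 1.45 ± 0.33, adjusted p = 0.094), Ier2 at 182, 393 and 342 CPM at 0w and 1067, 445 and 492 CPM at 1w pw1 (log2 1.13 ± 0.36, adjusted p = 0.232), and Egr1 at 172, 603 and 679.6 CPM at 0w and 371, 147 and 263 CPM at 1w pw1. Egr1 differed on the log2 scale by -0.90 ± 0.48 (adjusted p = 0.509). Junb and Ier2 were higher in every library, and the groups of Egr1 overlapped.

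The gene with the smallest p was Rab31 (GRCm38, chromosome 17, 65651729 to 65772752, minus strand), a small GTPase of traffic between Golgi and endosomes. It had 0, 4 and 5 counts at 0w and 132, 27 and 212 counts at 1w pw1, or 0, 1.62 and 3.20 CPM at 0w and 125, 30.5 and 97.9 CPM at 1w pw1 (log2 5.72 ± 0.76, adjusted p = 0.00851). Tcim, a small regulator of transcription, was at 15.9, 17.9 and 31.4 CPM at 0w and 322, 146 and 184 CPM at 1w pw1. For Tcim the log2 fold change was 3.33 ± 0.51 (adjusted p = 0.0123). Signalling and RNA-modifying enzymes were among the calls. Mapk6, the atypical MAP kinase ERK3, stood at 100.1, 111 and 72.4 CPM at 0w and 440.4, 361 and 385 CPM at 1w pw1 (log2 2.06 ± 0.34, adjusted p = 0.0157). Bmp2k, a kinase induced by BMP2, had 31.3, 25.6 and 49.3 CPM at 0w and 139, 99.5 and 127 CPM at 1w pw1. Bmp2k differed on the log2 scale by 1.79 ± 0.33 (adjusted p = 0.0288). Tent5a, a poly(A) polymerase, stood at 18.5, 21.5 and 24.98 CPM at 0w and 238, 145 and 102 CPM at 1w pw1 (log2 2.89 ± 0.48, adjusted p = 0.0157). The 0w and 1w pw1 libraries did not overlap for any of the 5.

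Ctsc, the lysosomal protease cathepsin C, which activates the proteases of leukocyte granules, was at 47.7, 34.9 and 85.2 CPM at 0w and 241, 602 and 469 CPM at 1w pw1. For Ctsc the log2 fold change was 2.97 ± 0.55 (adjusted p = 0.0291). It was the only called gene of 11 cathepsins and cystatins tested, of which 7 had a negative log2 fold change. Car2, the cytosolic carbonic anhydrase, had 0, 33.7 and 12.2 CPM at 0w and 908, 339 and 357 CPM at 1w pw1, with a wide spread within 0w. Car2 differed on the log2 scale by 5.09 ± 0.97 (adjusted p = 0.0316). Tubb6, a beta tubulin, was at 12.3, 4.87 and 5.76 CPM at 0w and 177, 106 and 138 CPM at 1w pw1 (log2 4.19 ± 0.82, adjusted p = 0.0404). Cyp4f39, a cytochrome P450 whose human counterpart hydroxylates very long fatty acids of skin lipids, had 0 counts in all 3 libraries of 0w and 36, 11 and 46 at 1w pw1, at least 14.5-fold higher against the mean level of 3 counts a library (adjusted p = 0.0123). Gorab, a golgin, and Grip1, a scaffold with PDZ domains, were read sparsely. Gorab had 0, 0 and 1 counts at 0w and 4, 31 and 41 counts at 1w pw1, a pooled ratio of 111 (95% counting interval 19.3 to 4425). For Gorab the log2 fold change was 6.31 ± 1.06 (adjusted p = 0.0157). Grip1 had 2, 2 and 0 counts at 0w and 9, 26 and 46 counts at 1w pw1. Grip1 differed on the log2 scale by 4.79 ± 0.86 (adjusted p = 0.0277). The remaining calls, 2610528A11Rik, A630052C17Rik and Gm5424, are outside the naming rule. The first had 0, 0 and 3 counts at 0w and 298, 44 and 647 counts at 1w pw1. A630052C17Rik had 0 counts in all of 0w and 21, 39 and 24 at 1w pw1. Gm5424 had 35, 54 and 37 counts at 0w and 69, 78 and 271 counts at 1w pw1. The counting is not stated to use strand, and 10 of the 31 called genes overlap an annotated gene on the other strand, Tcim, Slc2a1, Ccnd2, Grip1, Ctsc and A630052C17Rik among them.

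On the lower side, Krt15 was the most abundant gene called. It stood at 6749.6, 6709 and 3863 CPM at 0w and 186, 1189 and 416 CPM at 1w pw1, and the mean fell by 3.28 on the log2 scale (SE 0.62, adjusted p = 0.0316). The 3 unwounded libraries lay well above the 3 of 1w pw1, of which replicate 2 was the highest. Krt15 was the only called member of the 18 bulge genes, all tested, of which 1 was positive and 17 negative, 7 were lower and 1 higher in all libraries, and the median was -1.65 (-1.77 to -0.80 over the refits, and -1.48 with the 1 member at 0 in a group set at its bound). Sox9, a transcription factor of follicle stem cells, had 2264, 1221 and 934 CPM at 0w and 319.8, 467 and 874 CPM at 1w pw1 (log2 -1.41 ± 0.42, adjusted p = 0.191). Gas1 was the positive member, at 251, 463 and 186 CPM at 0w and 594, 656 and 547 CPM at 1w pw1. For Gas1 the log2 fold change was 1.00 ± 0.34 (adjusted p = 0.269). Ptn, Nfatc1, Tcf7l1 and Cd200, chosen after their values were seen, had log2 fold changes of -1.55, -1.14, -2.05 and -2.50 with no overlap, and adjusted p of 0.062, 0.235, 0.403 and 0.536. Lgr5, the receptor that marks the lower follicle, was at 51.3, 97.1 and 264 CPM at 0w and 0.949, 55.4 and 27.2 CPM at 1w pw1, with overlapping groups. Lgr5 differed on the log2 scale by -2.31 ± 1.01 (adjusted p = 0.413).

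Genes of the compartment from which the cells came gave 0 calls. Of 15 tested genes of the junctional zone and infundibulum 2 were positive and 13 negative, 5 were lower and 1 higher in all libraries, and the median log2 fold change was -0.83 (-1.08 to -0.46 over the refits). Cst6, an inhibitor of cysteine proteases, had 6449, 5983 and 2816 CPM at 0w and 3985, 437 and 3453 CPM at 1w pw1 (log2 -0.95 ± 0.68, adjusted p = 0.656). Gata6, the factor of the sebaceous duct lineage, was at 85.7, 112 and 46.8 CPM at 0w and 19.9, 28.3 and 48.0 CPM at 1w pw1 (log2 -1.33 ± 0.62, adjusted p = 0.44), with the highest library of 1w pw1 just above the lowest of 0w. Aqp3, a channel for water and glycerol, had 2662, 1832 and 2345 CPM at 0w and 2874, 1863 and 2036 CPM at 1w pw1, with overlapping groups (log2 -0.01 ± 0.26, adjusted p = 0.994). Krt79 and Postn, chosen after their values were seen, were at 2839, 3130.0 and 3033 CPM at 0w and 2126, 969 and 1370.2 CPM at 1w pw1, and at 1751, 3070.3 and 1888 CPM at 0w and 757, 1256 and 546 CPM at 1w pw1 (log2 -1.01 and -1.39). Ly6a was the member higher in all libraries, at 326, 186 and 423 CPM at 0w and 781, 452 and 534 CPM at 1w pw1. For Ly6a the log2 fold change was 0.92 ± 0.32 (adjusted p = 0.279).

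Of 22 sebaceous gland genes tested 0 were called, 8 were positive and 14 negative, 5 were lower and 1 higher in all libraries, and the median was -0.58. Mgst1 and Scd1, which act in glutathione transfer and in making unsaturated fatty acids, had log2 fold changes of -1.36 ± 0.43, adjusted p = 0.235, and -1.22 ± 0.51, adjusted p = 0.392. The sebocyte genes Pparg, Mc5r and Dgat2, picked out after their values were seen, were lower in every library, with Pparg, the nuclear receptor of lipid storage, at 109, 36.1 and 17.3 CPM at 0w and 3.80, 3.39 and 1.38 CPM at 1w pw1. Pparg differed on the log2 scale by -4.27 ± 1.04 (adjusted p = 0.121). Fabp5, a fatty acid carrier of sebocytes and of activated epidermis, stood apart from the rest of the list without a call. It had 384, 112 and 769.9 CPM at 0w and 5279, 2066 and 2597 CPM at 1w pw1 (log2 2.97 ± 0.66, adjusted p = 0.0784). Its lowest library of 1w pw1 was above the highest of 0w.

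Among other genes that fell, Ccnd2, the cyclin D2 of early G1 phase, was read at 782, 477 and 704 CPM at 0w and 205, 288 and 171 CPM at 1w pw1. For Ccnd2 the log2 fold change was -1.57 ± 0.27 (adjusted p = 0.0167). It was the only call of 34 cell cycle genes tested, of which 14 were positive and 20 negative. In all libraries 2 of the 34 were higher and 2 lower, beside 7.51% and 6.4% of all genes tested. The median of -0.18 lay between -0.50 and 0.47 over the refits and so changed sign. Cdk4 and Ccnb2, the next most abundant, had overlapping groups and log2 fold changes of -0.53 ± 0.43 (adjusted p = 0.706) and 0.0040 ± 0.42 (adjusted p = 0.9998). Aldh3a1, which detoxifies aldehydes, had 795, 527 and 409 CPM at 0w and 91.1, 79.2 and 158 CPM at 1w pw1. Aldh3a1 differed on the log2 scale by -2.39 ± 0.44 (adjusted p = 0.0291). Fmo5, a flavin-containing monooxygenase, had 118, 301 and 43 counts at 0w and 0, 4 and 1 counts at 1w pw1 and was close to empty at 1w pw1 (log2 -5.58 ± 1.03, adjusted p = 0.0291). Tsc22d3, the glucocorticoid-induced leucine zipper GILZ, was at 309, 586 and 395 CPM at 0w and 36.1, 80.3 and 44.8 CPM at 1w pw1, lower in every library. For Tsc22d3 the log2 fold change was -3.01 ± 0.59 (adjusted p = 0.0387). Cnnm4, a transporter of magnesium, had 122, 70.7 and 73.0 CPM at 0w and 24.7, 13.6 and 15.7 CPM at 1w pw1. Cnnm4 differed on the log2 scale by -2.30 ± 0.44 (adjusted p = 0.0316). Kank1, an adaptor between focal adhesions and microtubules, had 167, 289 and 129 CPM at 0w and 50.3, 67.9 and 48.9 CPM at 1w pw1 (log2 -1.81 ± 0.36, adjusted p = 0.0404).

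The proteases of migration and their inhibitors gave 0 calls, although several were read in the wounded libraries alone. Of 18 tested 12 were positive and 6 negative, 6 were higher and 3 lower in all libraries, and the median was 0.66. Adam10, a sheddase of the cell surface, was higher in every library, at 213, 208 and 238 CPM at 0w and 379.6, 379 and 247 CPM at 1w pw1. For Adam10 the log2 fold change was 0.61 ± 0.31 (adjusted p = 0.478). Serpinb2, an inhibitor of serine proteases, had 63.1, 201 and 302 CPM at 0w and 469, 253 and 173 CPM at 1w pw1, with overlap (log2 0.66 ± 0.60, adjusted p = 0.757). Mmp2, gelatinase A, was lower in every library, at 107, 169 and 151 CPM at 0w and 22.8, 27.1 and 45.7 CPM at 1w pw1. Mmp2 differed on the log2 scale by -2.14 ± 0.48 (adjusted p = 0.0798). Chosen after their values were seen, Mmp9, Timp1 and Mmp3 had 0 counts in each library of 0w and counts in each of 1w pw1. Mmp9, gelatinase B, was at 9.49, 22.6 and 84.0 CPM at 1w pw1, at least 24.8-fold higher against 3 counts a library. Timp1 was at least 9.59-fold and Mmp3 at least 8.51-fold higher by the same measure, with adjusted p for Mmp9, Timp1 and Mmp3 of 0.138, 0.21 and 0.062. Mmp9 and Timp1 were highest in replicate 3, the library with the most fibroblast and leukocyte marker RNA, and Mmp3 was highest in replicate 1, and the part of such RNA was not tested.

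Of 9 EGF receptor genes and ligands tested 0 were called, 8 were positive, 2 were higher in all libraries and the median was 1.33 (0.57 to 2.67 over the refits). The ligands Tgfa and Areg, chosen after their values were seen, were at 21.04, 11.8 and 5.12 CPM at 0w and 52.2, 30.5 and 24.9 CPM at 1w pw1, and at 0, 2.44 and 0 CPM at 0w and 29.4, 5.66 and 9.23 CPM at 1w pw1. The receptors Egfr, Erbb2 and Erbb3, the most abundant members, had overlapping groups and log2 fold changes of -0.07 ± 0.46 (adjusted p = 0.979), 0.04 ± 0.45 (adjusted p = 0.989) and 0.75 ± 0.67 (adjusted p = 0.749). Matrix adhesion genes gave 0 calls of 21 tested, 12 positive and 9 negative, and a median of 0.17. Cd44, the hyaluronan receptor, was higher in every library, at 395, 752 and 523 CPM at 0w and 884, 900.4 and 782 CPM at 1w pw1 (log2 0.62 ± 0.37, adjusted p = 0.569). Lama3 had 259, 112 and 101 CPM at 0w and 197, 348 and 355 CPM at 1w pw1 (log2 0.94 ± 0.46, adjusted p = 0.464). TGF-beta and BMP genes gave 0 calls of 21 tested, 5 higher and 4 lower in all libraries, and a median of 0.13. Wnt genes gave 0 calls of 24, with 4 positive and 20 negative values and a median of -0.47. The 35 actin cytoskeleton genes had 21 positive and 14 negative values, 6 higher in all libraries and a median of 0.28, and the 12 heat shock genes had 6 of each sign and a median of 0.06. Lists of Notch, Polycomb, ERK feedback, NRF2, unfolded protein, interferon, interleukin, desmosome, polarity and Ly6 genes had 0 calls and medians between -0.27 and 0.33. Over the refits the medians of these lists, except that of unfolded protein genes, changed sign, as did those of the heat shock, matrix adhesion, TGF-beta, AP-1, annexin and oxidative phosphorylation lists.

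Levels of only some of the called genes at the later times are given, as a description, since all times share the 0w libraries. Among the called genes left out here, some had a higher mean at 8w than at 1w pw1, as Gorab did. Others had a lower one, as Tubb6 did. Slc2a1 averaged 155 CPM unwounded and 837, 475, 279 and 266 CPM at 1, 2, 4 and 8 weeks after the first wound, then 529.9 CPM 1 week after a second wound (1w pw2). Krt6b averaged 60.9, 1025, 277, 96.8, 16.3 and 598 CPM at the same times. Its mean at 8w was below that at 0w. The 8w libraries had 10.9 to 14.4% mitochondrially encoded counts and a mean GC content of 45.4 to 46.0%, against 3.15 to 5.38% and 48.9 to 49.3% at 0w, and the part of this in the levels was not tested. Gja1 averaged 142, 754, 560.4, 396, 470.1 and 1559 CPM, highest after the second wound. The 1w pw2 libraries had 4.89 to 8.66% mitochondrially encoded counts and a mean GC content of 46.2 to 47.1%. The part of these shares in the levels at 1w pw2 was not tested either. Krt15 averaged 5774, 597, 1145, 2259, 1859.7 and 854 CPM and was highest at 0w. Ccnd2 averaged 654, 221, 537, 555, 836 and 391 CPM, lowest at 1w pw1. Grip1 averaged 0.613, 19.7, 24.1, 32.5, 33.8 and 30.8 CPM at the same times. Its lowest mean, at 0w, rests on 4 counts in all.

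**Figure D4:**
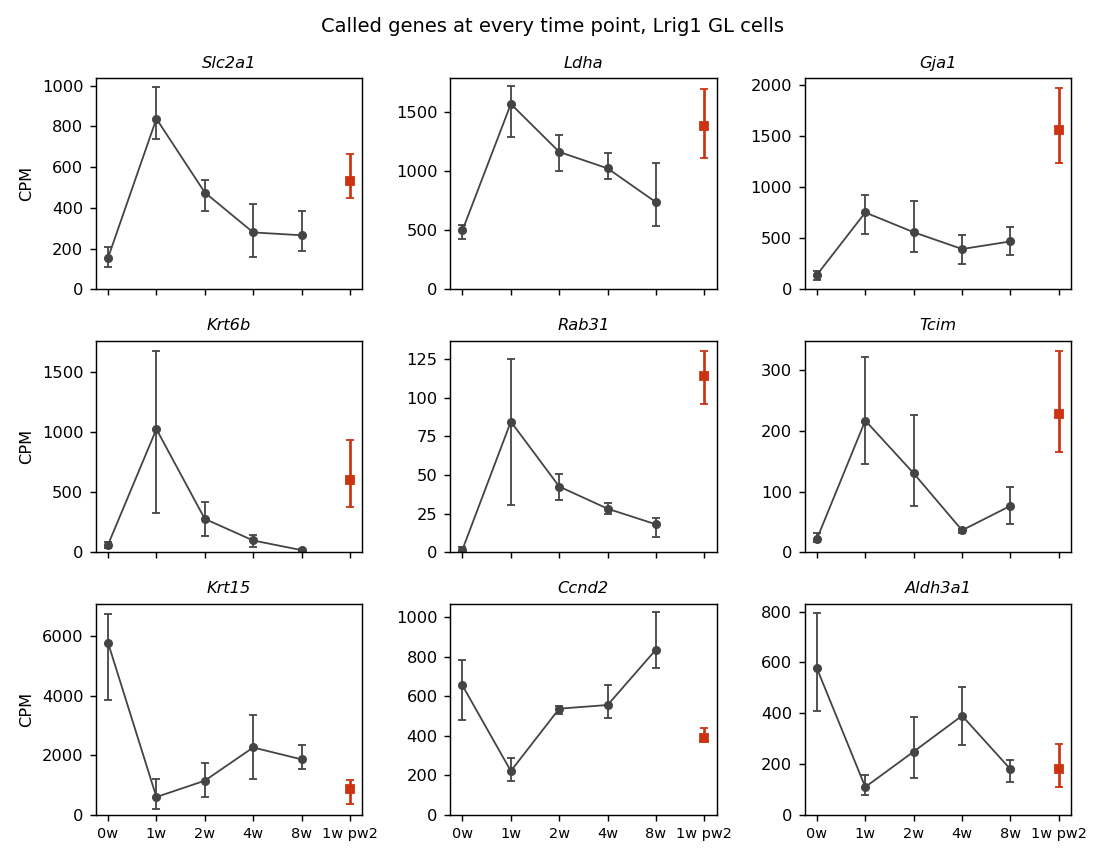
Mean CPM of 9 called genes in the 3 libraries of each time point of Lrig1 GL cells, with bars from the lowest to the highest library, joined from 0w to 8w after the first wound, and the second wound (1w pw2) as a red square. Slc2a1, Ldha, Krt6b, Rab31 and Tcim have their highest mean at 1w pw1 or 1w pw2, and Krt15, Ccnd2 and Aldh3a1 their lowest at 1w pw1.

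The same wound was compared in Lgr5 GL cells, the labelled progeny of the lower follicle. They came from adult mice with Lgr5-EGFP-ires-CreERT2, the same reporter and the same hydroxytamoxifen, and their libraries are separate from those of Lrig1 GL cells. Of the 24 genes higher in Lrig1 GL cells 20 had a positive log2 fold change in Lgr5 GL cells, 11 were called higher there, where 0.427% of all genes were, and 16 were higher in all 3 libraries of 1w pw1 than in all 3 of 0w, as were 9.98% of all genes. Of the 7 lower genes 6 were negative in Lgr5 GL cells. There 2 were called lower (0.86% of all genes) and 4 were lower in all libraries (9.8%). Of all genes tested in Lgr5 GL cells 46.5% had a positive and 52.9% a negative log2 fold change. Slc2a1 had a log2 fold change in Lgr5 GL cells of 3.07 ± 0.52 (adjusted p = 0.0136), and Ldha one of 1.52 ± 0.33 (adjusted p = 0.0333). Krt15 was at 16189 ± 2473 CPM at 0w and 7243 ± 3085 CPM at 1w pw1 there (SD, n = 3 each, log2 -1.16 ± 0.28, adjusted p = 0.0498). Ccnd2 was at 109 ± 8.10 and 108 ± 33.3 CPM.

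The difference between the responses was tested in all 36 libraries and called in 8 of 16153 genes (0.0495%), with 2425 at an unadjusted p under 0.05, and 1 of the 8, Grip1, was among the 31 genes. Grip1 went from 0.613 to 19.7 CPM in Lrig1 GL cells and from 39.4 ± 28.8 to 9.35 ± 5.36 CPM in Lgr5 GL cells (SD, n = 3 each), a log2 difference of 6.86 ± 1.16 (adjusted p = 0.0295). The Lgr5 GL values overlapped, from 7.03 to 62.0 CPM at 0w and 3.96 to 14.7 CPM at 1w pw1, and did not pass the test on their own, with a log2 fold change of -2.05 ± 0.73 (adjusted p = 0.149). Gorab and Fmo5 had differences of 5.75 ± 1.29 (adjusted p = 0.0611) and -6.08 ± 1.31 (adjusted p = 0.0611). A630052C17Rik, which had 0 counts at 0w in Lrig1 GL cells, averaged 25.04 CPM there at 1w pw1, and went from 16.97 to 7.14 CPM in Lgr5 GL cells, with an adjusted p of 0.0611 for the difference. Rab31, at 29.0 ± 9.03 CPM at 0w and 133 ± 61.3 CPM at 1w pw1 in Lgr5 GL cells, had a difference of 3.52 ± 0.85 (adjusted p = 0.0726). For Slc2a1, Ldha and Krt6b the differences were -0.66 ± 0.63 (adjusted p = 0.655), 0.11 ± 0.43 (adjusted p = 0.948), and 1.47 ± 0.89 (adjusted p = 0.44). A p above the threshold does not show that the lineages responded alike. The count of 8 fell to 0 with the 12 libraries of 0w and 1w pw1 alone (1279 at an unadjusted p under 0.05). Without replicate 1, 2 or 3 of Lrig1 GL 0w it was 0, 196 and 56, and without replicate 1, 2 or 3 of Lrig1 GL 1w pw1 it was 1, 0 and 3. Leaving out single Lgr5 GL libraries gave 1 to 65.

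**Figure D5:**
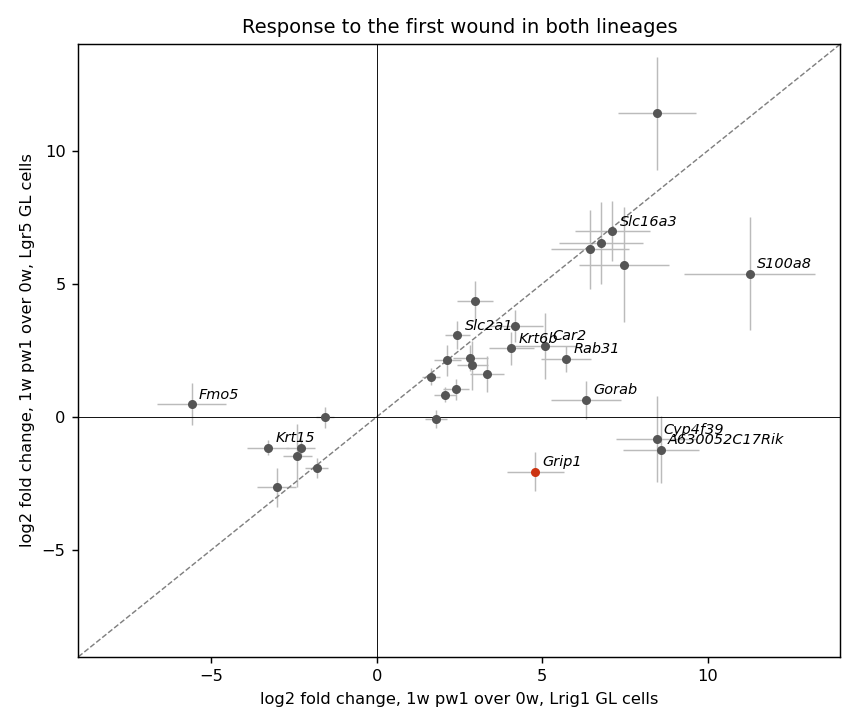
Log2 fold change of 1w pw1 over 0w in Lgr5 GL cells against that in Lrig1 GL cells for the called genes, with standard errors as grey bars, a dashed line of equal change, and in red the gene whose responses differed by the test across both lineages. Most genes lie in the same quadrant in both lineages, with Grip1 below 0 in Lgr5 GL cells and Fmo5 near 0 there.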

How the data were processed

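Gene counts were used as deposited. Per the labels and the submitters' processing notes, the authors trimmed reads with Trim Galore 0.5.0, aligned them with HISAT2 and counted reads per gene with featureCounts; a strand setting is not given in the sources used here. Samples were grouped by their labels. The count columns of 2w, 4w and 8w, and of Lgr5 GL 0w, carry replicate numbers other than those of the labels and were used by group alone. The 18 Lrig1 GL libraries were fitted together by time point in edgeR 4.0.16 (R 4.3.3) with TMM scaling, filterByExpr and a prior count of 0.125, and the 1w pw1 coefficient against 0w was tested by quasi-likelihood, with p-values adjusted after Benjamini and Hochberg over 14306 of 20181 genes. Standard errors are the size of the log2 fold change divided by the root of the F statistic. The lineages were compared through the interaction of time and lineage over all 36 libraries. The script was tested on simulated data. Single values were compared by exact permutation tests, two-sided. Alternatives used limma 3.58.1, DESeq2 1.42.0 and sva 3.50.0. The p-values measure the spread between these samples, described by the study as separate mice. Intervals (95%, exact) and the floor of 3 counts cover counting error only.

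The groups compared, the gene lists and the genes examined were chosen with earlier results of these data known. Genes were named by rule: those called, except symbols beginning with Gm and digits or ending in Rik; of each list the called members and up to 3 tested members with the highest mean CPM (lists given by counts alone name none); Lrig1, Lgr5 and Gata6; and, of the genes called, the 5 lowest by adjusted p in the comparison of lineages. Promoter sequences came from RefSeq (GRCm38.p6) and gene positions from GENCODE M21 (GRCm38). Some results are not reported here.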

Additional observations from a re-analysis of the deposited data

Results flagged for a closer look

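Grip1, which encodes a PDZ scaffold protein, changed differently from 0w to 1w pw1 in the 2 lineages by edgeR's interaction test. Its level in Lrig1 GL cells at 0w rests on 4 counts in all. The mean of 19.7 CPM at 1w pw1 there was below those of every later time, which ran from 24.1 to 33.8 CPM. Its log2 fold change in Lrig1 GL cells minus that in Lgr5 GL cells was 6.86 (SE 1.16, adjusted p = 0.0295, 3 libraries a group), with higher levels in 3 of 3 wounded libraries of Lrig1 GL cells. In Lgr5 GL cells the lower level at 1w pw1 did not pass (log2 fold change -2.05, SE 0.73, adjusted p = 0.149), and the libraries overlapped. Grip1 overlaps 9 annotated genes, Helb among them and 5 on the other strand, and reads of these cannot be told apart in counts without strand. The adjusted p lay between 0.00359 and 0.311 over the alternatives by the quasi-likelihood test, was above 0.05 with the 12 libraries of 0w and 1w pw1 alone (0.311), without replicate 1 of Lrig1 GL 0w (0.118) and without replicate 2 of Lrig1 GL 1w pw1 (0.0607), and was 6.67e-05 by the likelihood ratio test.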

How the results depend on the processing

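The number of genes called at 1w pw1, 31 in the fit to all 18 libraries, changed with the setting. It was 0 with the 6 libraries alone (0 higher and 0 lower) and 287 by edgeR's likelihood ratio test (185 higher, 102 lower). By DESeq2 it was 345 (216 higher, 129 lower) and with the GC trend removed 52 (21 lower). With the estimated 5 surrogate variables it was 3 (3 higher, 0 lower), and 1 of these 3 was among the 31. Of 37 genes called with 2 surrogate variables 23 were among the 31, and of 23 by limma-voom 14 were. The study also used the sva package on its normalized counts. The lower genes, 7 in the report, numbered 2 by limma-voom, 11 with a filter of 1 CPM in every library of a group and 50 counts in all, and 11 with 2 surrogate variables. Leaving out 1 library gave 0 to 63 calls, 0 to 51 of them higher and 0 to 12 lower. Size factors of DESeq2 in edgeR, a robust fit, no filter and no fold threshold gave counts within 1.5 times. The difference between lineages, called in 8 genes, was called in 409 by the likelihood ratio test, 0 with the 12 libraries alone and 4 with no filter, and in 0 to 196 with 1 library left out. With the replicate number as a replicate block, 15 genes were called (13 higher, 2 lower) and 25 differed between lineages. The block rests on 0w, 1w pw1 and 1w pw2 of Lrig1 GL cells, and on 1w pw1 and 1w pw2 of Lgr5 GL cells, since the columns of the other groups carry numbers other than those of the labels. The numbers mark separate mice. Deviations of same-numbered libraries correlated at r = 0.0031 to 0.1249 and those of differently numbered ones at r = -0.0791 to 0.0448. Not every library correlated best with its own. With 3 libraries a group these values cannot decide whether same-numbered libraries shared a step of handling, which was not tested. Dcn, not called, changed sign to 0.045 with the estimated surrogate variables, and lay between -4.25 and 0.25 with 1 library left out. Named genes near 0, not called, changed sign too. Aqp3 was 0.021 with the 6 libraries alone, 0.0152 by DESeq2 and with its size factors, 0.20 and 0.15 with the estimated number and with 2 surrogate variables, and -0.23 to 0.11 with 1 library left out. Pdk1 was -0.11 by limma-voom, -0.085 with 2 surrogate variables, -0.068 with the GC trend removed, -0.084 with this and the block, and -0.21 to 0.33 with 1 library left out. Ccnb2 was -0.032 by limma-voom, -0.010 with no filter, -0.0042 with the block, -0.095 and -0.090 with the GC trend removed without and with the block, and -0.35 to 0.34 with 1 library left out. Anxa2 was 0.17 and 0.18 with the estimated number and with 2 surrogate variables, and -0.37 to 0.027 with 1 library left out, and Anxa1 -0.32 to 0.20. Erbb2 was -0.021 by limma-voom, -0.20 with 2 surrogate variables and -0.31 to 0.48 with 1 library left out, and Egfr 0.011 by limma-voom and -0.31 to 0.32. Sprr1a was 0.64 and 0.088 with the estimated number and with 2 surrogate variables, and -1.33 to 0.16 with 1 library left out. Of 592 list medians recomputed, 39 moved by more than the spread between libraries and 64 had another sign, while the median of all genes lay between -0.14 and 0.23. The cause of these changes was not tested. Depth limits genes under 1.22 to 3.39 CPM.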
